A study of Gossypium hirsutum with 30 samples.

Results

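The genotype difference between fuzzless-lintless (fl) mutant and wild-type (WT) cotton ovules was compared between 10 and 15 days post anthesis (dpa), the peak and the late phase of fibre elongation. For every transcript, the fl mutant minus WT difference at 10 dpa was subtracted from the fl mutant minus WT difference at 15 dpa, and this difference of differences is called the stage contrast here. The 12 arrays labelled 10 and 15 dpa, out of 30 arrays in the series, were used. The arrays fell into 4 groups of 3, namely WT at 10 dpa, fl mutant at 10 dpa, WT at 15 dpa and fl mutant at 15 dpa. Of the 24132 probe sets on the array, 24029 were tested after leaving out 103 control probe sets.

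Cotton (Gossypium hirsutum L. cv. MCU5) was profiled at 5 stages on the Affymetrix cotton GeneChip in both genotypes. The fl mutant is a spontaneous near-isogenic line of MCU5 that is kept as a pure line, and plants were grown in the field with flowers tagged at anthesis. WT samples were ovules bearing fibres and mutant samples were whole ovules with neither fuzz nor lint, and the labels give no transgene or treatment for either genotype. Each group held 3 biological replicates. The mutant is a single line, so whatever else differs between both lines cannot be told apart from the loss of fibre. A lower level in the mutant's ovules can mean fewer cells of a type or less RNA per cell, and these cannot be told apart in bulk tissue.

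Cotton fibres are single epidermal cells of the ovule that elongate for weeks through turgor and a flexible primary wall, and then deposit a thick cellulose wall. Expansins and xyloglucan endotransglucosylase/hydrolases loosen or remodel the primary wall, fasciclin-like arabinogalactan proteins sit at the membrane and in the wall, and 3-ketoacyl-CoA synthases make the very long chain fatty acids that growing fibres need. In Arabidopsis, touch, wounding and calcium entry induce within minutes a set of genes that includes TCH2, TCH4 and many AP2/ERF factors, while small heat shock proteins and HSFA2 respond to heat and protein damage.

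The deposited values were log2 intensities in which every probe set had been shifted so that its median over the 6 arrays of a stage was 0. Levels can therefore not be compared between stages, and the stage contrast does not tell whether the WT, the mutant or both changed between 10 and 15 dpa. Where both genotypes are fully apart, this shift also places the nearest arrays of the 2 groups at the same distance above and below 0. A stage contrast was called when its Benjamini-Hochberg adjusted p from limma was at most 0.01 and its size was at least 3-fold (1.58 on the log2 scale). It is called higher when the mutant minus WT difference was more positive at 15 than at 10 dpa, and lower when it was more negative. The array medians ranged from -0.04 to 0.03, no pair of arrays held identical values, and the median SD within a group was 0.127 log2 units.

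Genotype differences at peak elongation were mostly not those at late elongation. The stage contrast was called for 3022 transcripts, 12.6% of those tested, with 1719 higher (7.15%) and 1303 lower (5.42%). At 10 dpa, 2754 transcripts (11.5%) differed between genotypes, 1180 higher (4.91%) and 1574 lower (6.55%) in the mutant. At 15 dpa, 824 transcripts (3.43%) differed, 366 higher (1.52%) and 458 lower (1.91%). A called stage contrast was found for 76.6% of the transcripts that differed at 10 dpa and for 67% of those that differed at 15 dpa. The SD over transcripts of the genotype difference was 1.13 log2 units at 10 dpa and 0.674 at 15 dpa, and across transcripts, which are not independent replicates, Pearson's r between both stages was 0.062. Transcripts that were lower in the mutant at 10 dpa had a median difference of -2.44 there and 0.01 at 15 dpa, and those that were higher at 10 dpa had medians of 2.12 and 0.07.

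Under the p threshold alone, 11119 stage contrasts (46.3%) passed, so the count rests mainly on the fold threshold. Just inside it lay the AIR3 probe set GhiAffx.24459.1.S1_at at -1.59 and GhiAffx.9481.1.S1_at at 1.59, and just outside lay Gra.49.1.S1_at at -1.58. The split between higher and lower also depended on how the arrays were scaled to each other. Lower calls made up 43.1% of all calls on the deposited scale. The share became 66.4% (1226 higher, 2424 lower) when arrays were shifted to a common level of the hybridization controls, and 83.7% (887 higher, 4548 lower) when they were shifted to a common level of the poly-A spike-in controls. These shifts moved the median stage contrast of all transcripts from -0.08 to -0.54 and -0.96, and the values of the controls are given further on.

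**Figure D1:**
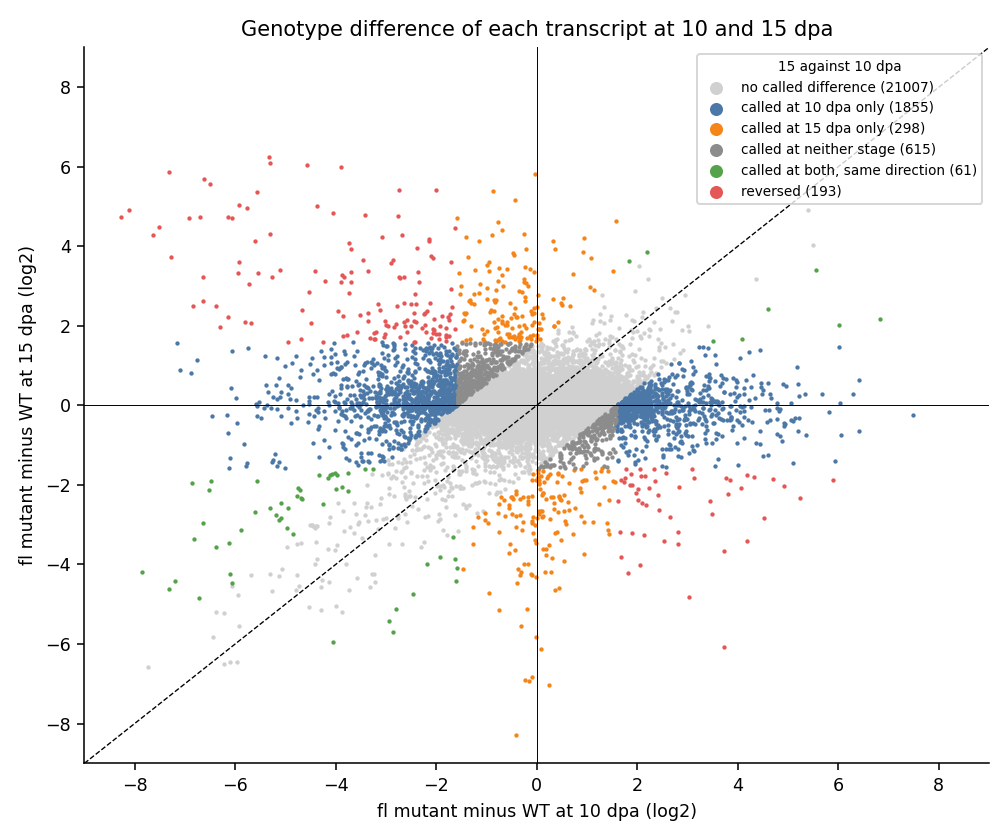
Genotype difference (fl mutant minus WT, log2, mean of 3 minus mean of 3) of each of 24029 transcripts at 10 dpa (x axis) and 15 dpa (y axis), with colours for transcripts whose stage contrast was called and the dashed line marking equal differences at both stages. The 193 reversed transcripts lie in the upper left and lower right, 1855 called at 10 dpa only lie along the horizontal axis, and 298 called at 15 dpa only lie along the vertical axis.

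The called stage contrasts were made of differences found at 10 dpa only more than of any other kind. In 1015 transcripts the mutant was lower at 10 dpa and not called at 15 dpa, with medians of -2.46 and 0.16. In 840 transcripts it was higher at 10 dpa and not called at 15 dpa, with medians of 2.24 and -0.02. Differences found at 15 dpa only made up 148 higher and 150 lower transcripts. A further 615 transcripts passed at neither stage although their stage contrast did, and 61 were called at both stages in the same direction with unequal size.

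In 193 transcripts the sign of the genotype difference was called at both stages and was opposite. Of these, 141 (0.587% of all tested) were lower in the mutant at 10 dpa and higher at 15 dpa, with median differences of -3.13 and 2.54, and 52 (0.216%) were higher at 10 dpa and lower at 15 dpa, with medians of 2.42 and -2.15. By contrast, 149 transcripts were lower and 36 higher in the mutant at both stages with no called stage contrast.

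The largest stage contrasts among transcripts with a gene name belonged to TCH4, which encodes a touch-induced xyloglucan endotransglucosylase/hydrolase (XTH22). The probe set Ghi.1127.2.A1_x_at gave 4.03, 4.02 and 4.10 in WT and -4.02, -4.42 and -4.24 in the mutant at 10 dpa. At 15 dpa it gave -2.66, -2.42 and -2.24 in WT and 2.31, 2.29 and 2.24 in the mutant. The WT arrays were all higher at 10 dpa, the mutant arrays were all higher at 15 dpa, and the groups overlapped at neither stage. The genotype difference was -8.27 at 10 dpa and 4.72 at 15 dpa, a stage contrast of 13.00 ± 0.158 (SE, adjusted p = 7.98e-14). Of 10 probe sets matched to TCH4, 8 had a higher stage contrast and none a lower one, and they ranged from -0.77 to 13.01. The suffixes _s_at and _x_at mark probe sets that may detect several related transcripts, so these 10 are not separate genes.

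The study designed primer pairs for 28 transcripts. The pairs of 3 transcripts on which the results turn are shown because they give the stretch of cotton transcript behind each name. Each stands 5′ to 3′, forward first, in lower case throughout.
IAA4 forward: tggtgactggatgcttgttggaga
IAA4 reverse: agcaggcttcatcttccttgtgga
HSP18.2 forward: agctcatgtcttcaaagccgacct
HSP18.2 reverse: ttctggcaacctgaacctcctcat
FLA11 forward: acccttaaccgctgctttaggact
FLA11 reverse: aatgtgacgaccggagtggtgaat

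IAA4 belongs to the AUX/IAA repressors of auxin response. Its probe set GhiAffx.15164.1.A1_s_at gave 3.84, 3.96 and 3.59 in WT and -3.59, -3.81 and -4.12 in the mutant at 10 dpa, against -2.42, -2.01 and -2.08 in WT and 2.01, 2.21 and 2.09 in the mutant at 15 dpa. Again the genotypes overlapped at neither stage, and the order of the genotypes turned. The difference went from -7.63 to 4.27, a stage contrast of 11.91 ± 0.209 (adjusted p = 7.82e-13). Both of 2 IAA4 probe sets had a higher contrast. The other went from -2.18 to 0.38 (contrast 2.56) and, below 3-fold at 15 dpa, was not a called reversal. MERI5B (Ghi.1127.1.S1_at, XTH24), another xyloglucan enzyme, went from -6.92 to 4.71, a contrast of 11.63 ± 0.214. EXO, a phosphate-responsive family protein tied to brassinosteroid growth responses in Arabidopsis, went from -6.14 to 4.73 (Ghi.1118.1.S1_s_at, contrast 10.87 ± 0.133). Of 9 EXO probe sets, 8 were higher and the other gave -1.41, inside the fold threshold.

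RRTF1, an AP2/ERF factor of redox and wound responses, differed more at 15 than at 10 dpa. Its probe set Ghi.9720.1.S1_at gave 1.96, 2.12 and 1.77 in WT and -1.98, -2.06 and -1.77 in the mutant at 10 dpa. At 15 dpa the WT arrays gave -3.37, -2.92 and -2.90 and the mutant arrays 2.90, 2.92 and 2.97. The genotypes were apart at both stages and changed places, with differences of -3.89 and 5.99 and a contrast of 9.88 ± 0.185 (adjusted p = 1.17e-12). A related AP2-domain transcript, Ghi.10443.1.S1_at, went from -6.62 to 5.69 (contrast 12.32 ± 0.153), and CBF4, a C-repeat binding factor of cold and drought responses, from -5.73 to 3.05 (8.77 ± 0.168). A calcium-transporting P-type ATPase match (Ghi.3763.1.A1_s_at) went from -4.04 to 4.83, a contrast of 8.88 ± 0.127.

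These transcripts belong to a list of rapid wound and touch genes set by Arabidopsis locus, in which 54 of 62 probe sets had a higher stage contrast, 1 a lower one and 7 did not pass. Among the 2367 probe sets that any table of the study names, from which such lists can draw, 28.8% were higher and 40.4% were lower (69.2% called). The largest table is held only in part, and coverage was uneven among transcripts with a called contrast. The tables name 815 of the 840 that were higher in the mutant at 10 dpa only, and 405 of the 1015 that were lower there only. These background shares therefore lean towards lower contrasts. The list's median genotype difference was -2.66 at 10 dpa and 2.74 at 15 dpa, and its median stage contrast was 4.70, against -0.08 over all transcripts tested. In 25 of its probe sets the sign reversed from lower to higher, 16 were lower and 1 was higher at 10 dpa only, and 12 were higher at 15 dpa only. STZ, a zinc-finger repressor of stress responses, had 5 higher probe sets and 1 lower among 6. Of these, Ghi.807.1.S1_s_at went from -2.00 to 5.41 and Ghi.6901.1.A1_s_at from 2.87 to -0.77.

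**Figure D2:**
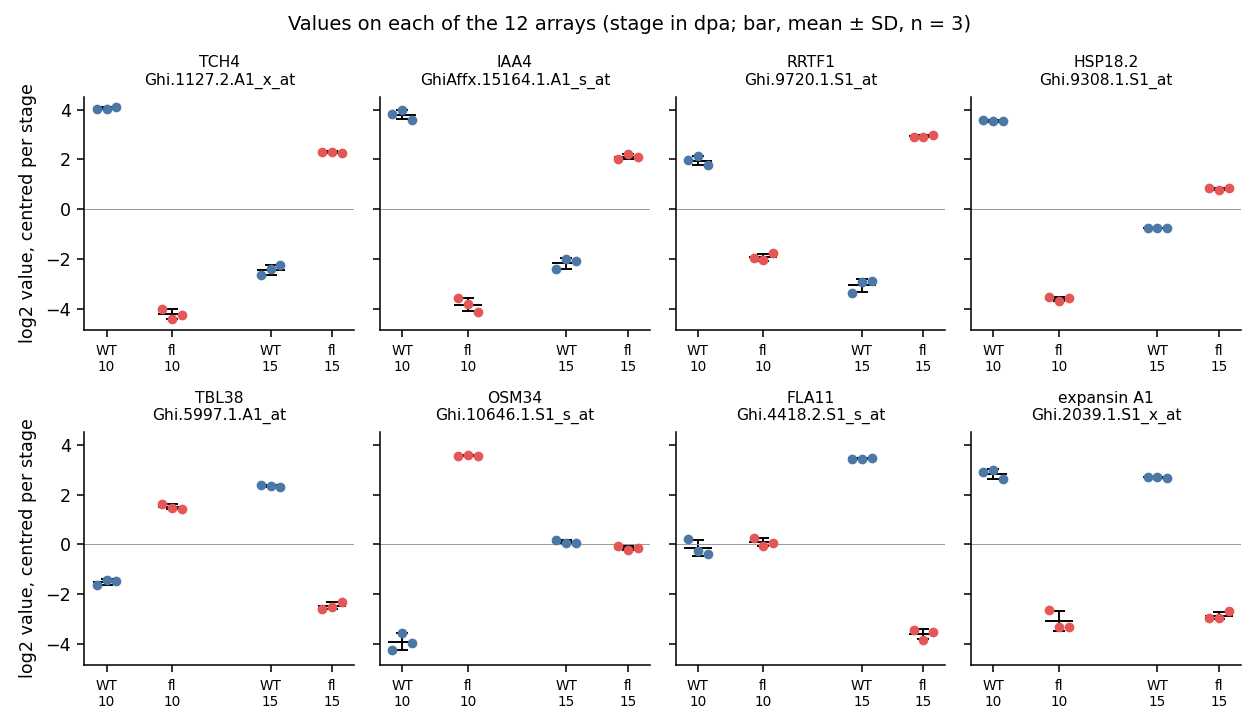
Stage-centred log2 value of 8 probe sets on each of the 12 arrays (WT blue, fl mutant red; x axis, genotype and dpa; bars, mean ± SD, n = 3). TCH4, IAA4 and RRTF1 change sides between stages, HSP18.2 and OSM34 are far apart at 10 dpa only, FLA11 at 15 dpa only, TBL38 changes sides the other way, and this expansin A1 probe set is lower in the mutant at both stages.

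Defence and hormone transcripts with a higher stage contrast covered several pathways. NHL25, a relative of the NDR1 disease resistance protein, went from -3.41 to 4.77, and BAP1, an inhibitor of programmed cell death in Arabidopsis, from -3.69 to 3.93. LOX4 and LOX3, lipoxygenases at the entry to jasmonic acid synthesis, went from -3.90 to 3.11 and from -3.53 to 2.27. WRKY40, a repressor in defence, went from -1.58 to 4.71 (Ghi.9192.1.S1_s_at), and SCL8 of the GRAS family from -3.35 to 2.11. GASA1, a gibberellin-induced small protein, had 1 probe set that went from -5.32 to 4.32 and 1 with a called contrast in the opposite direction (-5.54). PBP1, a calcium-binding partner of the PINOID kinase, differed by -0.77 at 10 dpa and by 4.60 at 15 dpa.

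Heat shock transcripts also had higher stage contrasts, but their genotype difference was concentrated at 10 dpa. HSP18.2, a small cytosolic chaperone, gave 3.59, 3.52 and 3.53 in WT and -3.52, -3.71 and -3.58 in the mutant at 10 dpa (Ghi.9308.1.S1_at). At 15 dpa it gave -0.78, -0.76 and -0.76 in WT and 0.83, 0.76 and 0.84 in the mutant. The groups did not overlap at either stage, with WT far above the mutant at 10 dpa and slightly below it at 15 dpa. The difference of -7.16 became 1.57, just under the fold threshold, for a contrast of 8.73 ± 0.0874 (adjusted p = 2.05e-14). HSFA2, the heat-induced factor that keeps small heat shock genes on in Arabidopsis, went from -6.76 to 1.13 (7.89 ± 0.0972), and HSP81-3, a cytosolic HSP90, from -5.98 to 0.18.

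In the study's heat shock section, 40 of 58 probe sets were higher, 4 lower and 14 did not pass, and the median difference went from -2.69 to 0.25. The section also holds transcripts whose matched gene has another function, such as IRX14, a xylan synthesis enzyme (contrast -3.91), and EXGT-A1, a xyloglucan enzyme (5.17). Among heat shock factors, 6 of 7 were higher, with HSFA3 going from -2.79 to 0.57 and HSFA8 from -2.98 to -0.05. The study drew its sections from transcripts that differed between genotypes on arrays including these 12, so such counts are not independent evidence of a direction.

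Galactinol synthases, which make the donor for raffinose-family sugars and are heat and drought induced in Arabidopsis, had higher contrasts in 5 of 6 probe sets, with a median of 4.14, and 1 did not pass (0.02). Of the 5, 3 were lower in the mutant at 10 dpa only, GhiAffx.19500.1.S1_at (GolS2) reversed from -2.63 to 2.00, and Ghi.10579.1.S1_at (GolS1) was lower at both stages, at -5.57 and -1.91. GolS1 went from -4.86 to 1.07 (GhiAffx.36503.1.S1_at) and GolS2 from -5.53 to 0.08 (GhiAffx.8202.1.S1_s_at). In the whole raffinose and trehalose section, 9 of 15 were higher, and the trehalose phosphate synthase TPS5 was lower, at 2.21 and 0.14.

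**Figure D3:**
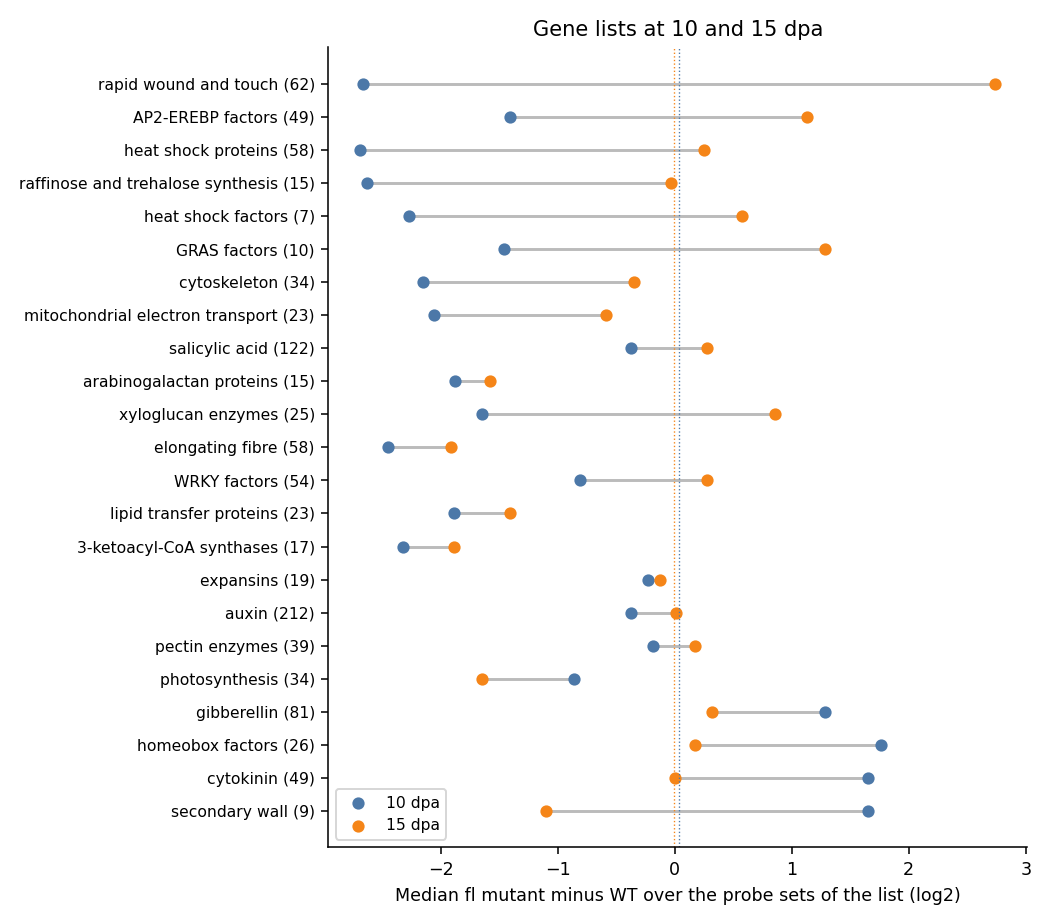
Median fl mutant minus WT difference (log2, x axis) over the probe sets of each gene list at 10 dpa (blue) and 15 dpa (orange), with the number of probe sets in brackets and dotted lines at the medians over all transcripts. The rapid wound and touch list moves from -2.66 to 2.74, while the elongating fibre list stays between -2.45 and -1.91 and the secondary wall list moves from 1.65 to -1.10.

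In the list of 58 elongating fibre probe sets, which includes wall-loosening, fatty acid and lipid export genes, 38 were lower in the mutant at 10 dpa and 32 at 15 dpa, with medians of -2.45 and -1.91. At each stage 4 were higher, and 4 reversed, 2 in each direction. Their stage contrasts went both ways, with 21 higher, 13 lower and 24 not passing. Over all transcripts tested, 6.55% were lower in the mutant at 10 dpa and 1.91% at 15 dpa. The list draws only on probe sets that the study names, mainly as differing between genotypes, so high shares are partly built in. Among all probe sets that the study names, 28.8% had a higher contrast and 40.4% a lower one. Expansin A1 (Ghi.2039.1.S1_x_at) gave 2.91, 2.98 and 2.62 in WT and -2.62, -3.31 and -3.32 in the mutant at 10 dpa, and 2.71, 2.70 and 2.68 in WT and -2.95, -2.94 and -2.68 in the mutant at 15 dpa. WT arrays were higher than mutant arrays without overlap at both stages. The differences were -5.92 and -5.55, and the contrast of 0.37 ± 0.235 did not pass (adjusted p = 0.209). The 7 probe sets matched to expansin A1 did not share this course, and their genotype differences ranged from -5.92 to 4.17 at 10 dpa and from -5.55 to 1.91 at 15 dpa.

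Single probe sets of other fibre transcripts kept the sign and differed in size. A probe set of GLP4, a germin-like protein annotated as a fibre protein on the array, went from -7.20 to -4.42. FLA12 (Ghi.5750.1.S1_s_at) went from -6.72 to -4.84, and both were called as higher contrasts. Of 3 GLP4 probe sets, 2 were higher and 1 lower, and their differences at 10 dpa ranged from -7.20 to 3.09. Of 3 FLA12 probe sets, 1 was higher and 2 were lower, with contrasts from -2.82 to 1.88. KCS11 (Ghi.5184.1.A1_s_at), of very long chain fatty acid elongation, gave -4.97 and -3.56, and its contrast of 1.41 did not reach 3-fold. SUS4, a sucrose synthase that supplies UDP-glucose, went the other way from -2.46 to -4.74.

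Some fibre-related sections held no called contrast or a mixed one. All 3 probe sets for proline-rich proteins, structural proteins of the wall, were lower in the mutant at both stages, with medians of -6.11 and -6.46 and no called contrast. Of 17 probe sets for 3-ketoacyl-CoA synthases, 12 were lower at 10 dpa and 11 at 15 dpa, and 4 contrasts were higher, 4 lower and 9 did not pass. Lipid transfer proteins, which carry wax and membrane lipids, gave 7 higher and 5 lower contrasts among 23. Their LTP3 probe sets ranged from Ghi.4754.1.A1_at, which went from -0.08 to -3.21, to GhiAffx.15712.3.S1_x_at, which went from -4.30 to 1.35. Among 15 probe sets for enzymes of wall precursors, 13 were lower in the mutant at 10 dpa and 3 at 15 dpa, and 8 contrasts were higher. GAE1, which makes UDP-galacturonate for pectin, went from -1.81 to 1.76 (contrast 3.58 ± 0.0837, adjusted p = 6.98e-12).

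Within families, single probe sets took different courses. Fasciclin-like arabinogalactan proteins held transcripts that differed at 15 dpa only. FLA11 (Ghi.4418.2.S1_s_at) gave 0.21, -0.26 and -0.40 in WT and 0.26, -0.08 and 0.08 in the mutant at 10 dpa, against 3.44, 3.43 and 3.48 in WT and -3.43, -3.82 and -3.51 in the mutant at 15 dpa. The groups overlapped at 10 dpa and were widely apart at 15 dpa. The difference was 0.24 at 10 dpa (adjusted p = 0.188) and -7.04 at 15 dpa, a contrast of -7.28 ± 0.212 (adjusted p = 3.88e-11), and all 3 FLA11 probe sets were lower. FLA7 (Ghi.5860.1.S1_s_at) went from -0.22 to -6.92, whereas FLA2, FLA8 and FLA10 had higher contrasts of 2.74, 3.28 and 3.60. In the arabinogalactan section 7 of 15 were higher and 6 lower.

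A cytochrome P450 followed FLA11. Ghi.1119.1.S1_s_at is matched to CPD, a brassinosteroid enzyme, in the study's hormone list and to CYP87A2 in its primer list, so its identity is not settled here. It gave 0.32, 0.22 and 0.03 in WT and -0.30, -0.03 and -0.35 in the mutant at 10 dpa. At 15 dpa it gave 3.99, 4.04 and 3.93 in WT and -4.37, -3.93 and -4.65 in the mutant. All mutant arrays were below all WT arrays at both stages, by a narrow margin at 10 dpa and a wide one at 15 dpa. The differences were -0.42 and -8.30, and its contrast of -7.88 ± 0.218 (adjusted p = 2.64e-11) was the lowest among transcripts with a gene symbol. The GDSL lipase probe set Ghi.8746.1.A1_at (GLIP1) went from -0.02 to -5.83. Of 15 GLIP1 probe sets, 6 were higher and 4 lower, with contrasts from -5.81 to 4.32.

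Xyloglucan enzymes split likewise. TCH4 and MERI5B reversed from lower to higher, and XTH29 reversed the other way, from 2.05 to -4.00 (Ghi.4532.1.A1_at, contrast -6.05 ± 0.13). In this section 11 of 25 were higher and 5 lower, and the median difference went from -1.65 to 0.86. Of 19 expansin probe sets, 7 were higher, 7 lower and 5 did not pass, and their median contrast of 0.14 became negative under both control scalings (-0.31 and -0.74). Expansin-like EXPR (GhiAffx.46297.1.S1_s_at) went from 4.93 to -0.44, and EXP5 from -0.23 to 2.73 (GhiAffx.35152.2.A1_s_at). Among 39 pectin enzyme probe sets, 14 were higher and 13 lower.

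**Figure D4:**
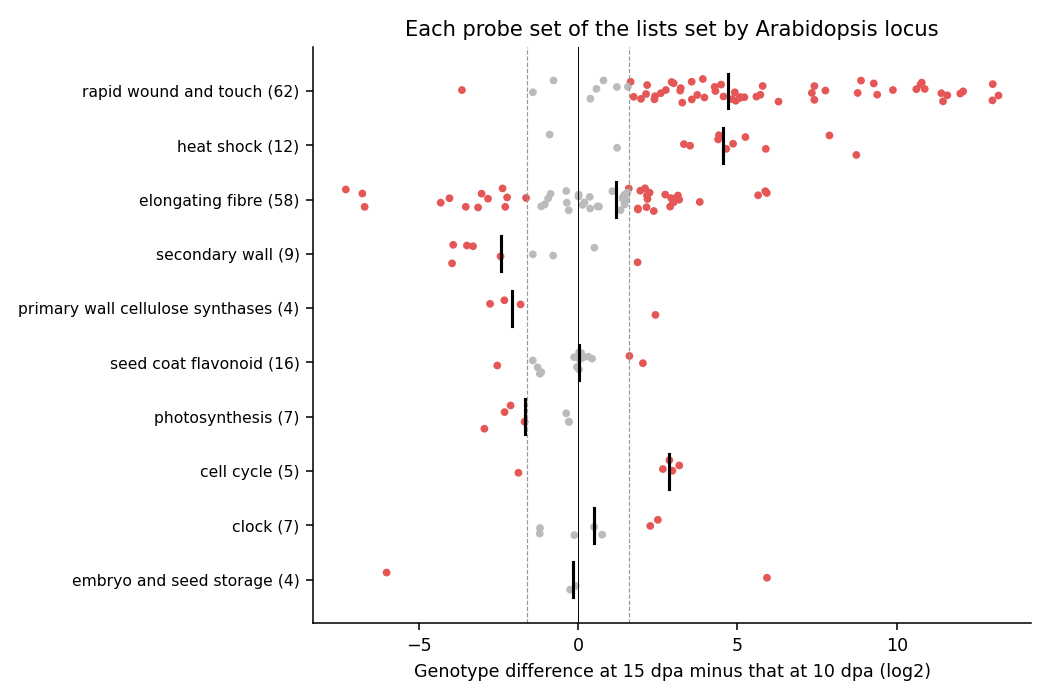
Stage contrast (log2, x axis) of each probe set in the lists set by Arabidopsis locus, red where called and grey where not, with a black bar at the list's median, dashed lines at 3-fold and the number of probe sets in brackets. Rapid wound and touch probe sets lie almost wholly to the right, elongating fibre probe sets on both sides and secondary wall probe sets mostly to the left.

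Secondary wall transcripts formed a small list, matched to 4 loci. In the list of 9 probe sets, 5 were lower, 1 was higher and 3 did not pass, with a median of 1.65 at 10 dpa and -1.10 at 15 dpa. Lower contrasts (40.4%) also outnumbered higher ones (28.8%) among all probe sets in the study's tables. No direction is therefore read from so small a list. CESA8, a cellulose synthase of thickening walls, gave -1.34, -1.57 and -1.34 in WT and 1.61, 1.34 and 1.59 in the mutant at 10 dpa (Ghi.1151.1.A1_at). At 15 dpa it gave 0.19, 0.16 and 0.20 in WT and -0.22, -0.16 and -0.17 in the mutant. The mutant was higher at 10 dpa and marginally lower at 15 dpa, with no overlap at either stage and a contrast of -3.29 ± 0.12. IRX14 went from 2.81 to -1.10 (Ghi.8774.1.S1_s_at), and NST1, a NAC switch of wall thickening in Arabidopsis, from -0.34 to -2.77. TSD1 (KORRIGAN), an endoglucanase that acts with cellulose synthases in primary and secondary walls alike, had 1 lower and 1 higher probe set among 4.

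CESA3, a primary wall cellulose synthase, was matched by 4 probe sets, of which 3 were lower and 1 higher. Ghi.8518.1.A1_at went from 0.10 to -2.66 and Ghi.2405.1.S1_at from -2.36 to 0.07. Ghi.5191.1.A1_at went from -0.17 to -2.48, and the array annotation relates it to the secondary wall gene IRX3 (CESA7) instead, so it cannot be placed in either wall class.

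Among transcripts with a gene symbol, the reversal from higher to lower with the largest contrast was that of TBL38, a trichome birefringence-like protein of a family that acetylates wall polysaccharides. Ghi.5997.1.A1_at gave -1.63, -1.44 and -1.46 in WT and 1.63, 1.47 and 1.44 in the mutant at 10 dpa, against 2.38, 2.35 and 2.31 in WT and -2.58, -2.50 and -2.31 in the mutant at 15 dpa. The mutant was above WT at 10 dpa and below it at 15 dpa, without overlap. The contrast was -7.83 ± 0.121 (adjusted p = 3.12e-13). BRL3, a brassinosteroid receptor kinase of vascular cells in Arabidopsis, went from 3.72 to -3.65, and CCOAMT, a caffeoyl-CoA methyltransferase of lignin synthesis, from 2.80 to -3.50. The subtilisin-like proteases AIR3 (Ghi.967.1.S1_s_at) and XSP1 had contrasts of -6.20 and -5.46. The alpha-tubulin probe set Ghi.6127.1.S1_at (TUA5) went from 2.10 to -2.46. It was the only lower one among 9 TUA5 probe sets, of which 3 were higher.

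Other lower contrasts came from transcripts that the mutant held at a higher level at 10 dpa only. OSM34, an osmotin of the thaumatin family, gave -4.24, -3.56 and -3.95 in WT and 3.56, 3.58 and 3.56 in the mutant at 10 dpa (Ghi.10646.1.S1_s_at). At 15 dpa it gave 0.19, 0.05 and 0.05 in WT and -0.05, -0.21 and -0.16 in the mutant. The groups were far apart at 10 dpa and nearly met at 15 dpa. The differences were 7.48 and -0.24, and the contrast was -7.72 ± 0.187 (adjusted p = 8.92e-12). BHLH32, a basic helix-loop-helix factor of phosphate responses in Arabidopsis, went from 6.42 to -0.63, and PEN3, an ABC transporter of defence, from 5.11 to -1.44. The glutathione S-transferase GST25 went from 4.70 to -1.86, a reversal.

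Among transcription factors, AP2-EREBP members were higher in 34 of 49 probe sets and lower in 6, with a median of -1.41 at 10 dpa and 1.13 at 15 dpa. GRAS members were higher in 7 of 10 and lower in none. Homeobox factors gave 12 lower and 4 higher contrasts among 26, a share of lower ones near the 40.4% of all probe sets in the tables, and their median went from 1.77 to 0.17. BLH1 went from 4.01 to -1.49 and HB20 from 3.89 to -0.63, while the homeodomain-leucine zipper factors HAT3 and HAT4 of shade and auxin responses went from -5.34 to 0.34 and from -4.35 to -0.17. MYB16, an epidermal MYB related to fibre MYB factors, went from -3.16 to 0.66. WRKY factors were higher in 23 of 54 and lower in 13, NAC factors higher in 5 of 15 and lower in 6, and bHLH factors 7 each way among 20. Among all probe sets that the study names, 28.8% were higher and 40.4% lower. The NAC and bHLH counts lie near these shares, and no direction is read from them. MYB factors were higher in 13 of 30 and lower in 8, and their median of 0.74 became -0.15 with the poly-A controls.

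Hormone groups mostly held both directions. Cytokinin transcripts were lower in 22 of 49 and higher in 9, with a median that went from 1.65 to 0.00. This share of lower ones was near the 40.4% of all probe sets in the study's tables. Gibberellin transcripts were lower in 24 of 81 and higher in 20, both below the shares of 40.4% and 28.8% in those tables. Among them GA3OX3, a gibberellin activating enzyme, went from 4.83 to -0.15. Salicylic acid transcripts were higher in 59 of 122 and lower in 28. For auxin (73 higher and 59 lower of 212), brassinosteroid (43 and 41 of 131), ethylene (56 and 49 of 162) and jasmonic acid (28 and 24 of 86), the median contrasts of 0.06 to 0.13 became negative under both control scalings, which lower every contrast by the same amount, and no direction is read from them. For abscisic acid (123 and 82 of 287), the median of 0.60 became negative with the poly-A controls only.

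Of 34 cytoskeleton probe sets, 30 were lower in the mutant at 10 dpa and 7 at 15 dpa. Their contrasts were higher in 20 and lower in 1, with median differences of -2.15 and -0.35. For comparison, 28.8% of all probe sets that the study names had a higher contrast and 40.4% a lower one. This section and the mitochondrial one below were drawn from transcripts that differed between genotypes, so genotype calls in them are partly built in. The actin depolymerising factor ADF6 went from -3.84 to 0.09 and the kinesin HIK, which acts in cell plate formation, from -2.94 to 0.28. All 3 probe sets of the histone HTA5, in a cell cycle list with 4 of 5 higher, were higher, with contrasts of 2.66 to 3.18. In the mitochondrial electron transport section 18 of 23 were lower and 5 higher in the mutant at 10 dpa, against 1 lower and none higher at 15 dpa, and the median went from -2.06 to -0.59. Its contrasts were higher in 11 and lower in 4, with the alternative oxidase AOX1A going from -3.36 to -0.11 and AOX2 from 2.62 to -0.19.

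Photosynthesis transcripts had 11 lower and 6 higher contrasts among 34, both below the shares of 40.4% and 28.8% in the study's tables, and their median genotype difference went from -0.87 to -1.65. LHCB2.1, of the light-harvesting antenna, went from 0.55 to -2.26, and PSAF of photosystem I from 2.33 to -1.61. DRT112, a plastocyanin, kept its sign at -5.61 and -2.69. Seed coat flavonoid transcripts, taken as markers of the inner seed coat, passed in 3 of 16 cases, and their median of 0.03 became negative under both control scalings. Of 7 clock probe sets, 2 were higher and 5 did not pass, and of 4 for embryo and seed storage, 1 was higher and 1 lower.

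The control probe sets of the array moved with the comparison. The poly-A spike-in controls detect bacterial RNAs that the standard protocol for these chips adds in fixed amounts to each sample before labelling. Their median over 36 probe sets was 0.425, 0.24 and 0.422 in WT and -0.289, -0.315 and -0.29 in the mutant at 10 dpa. At 15 dpa it was -0.026, -0.129 and -0.231 in WT and 0.284, 0.036 and 0.041 in the mutant. The genotypes did not overlap at either stage and lay in opposite orders, with a median contrast of 0.96 (0.44 to 1.41). The hybridization controls, which that protocol adds after labelling, gave a median of 0.48 over 27 probe sets, and 52 probe sets for foreign reporter genes, which were among those tested, gave -0.02. Of the 215 transcripts named under the rule for the text, 28 no longer passed when the poly-A controls were used for scaling and none changed sign with a call.

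**Figure D5:**
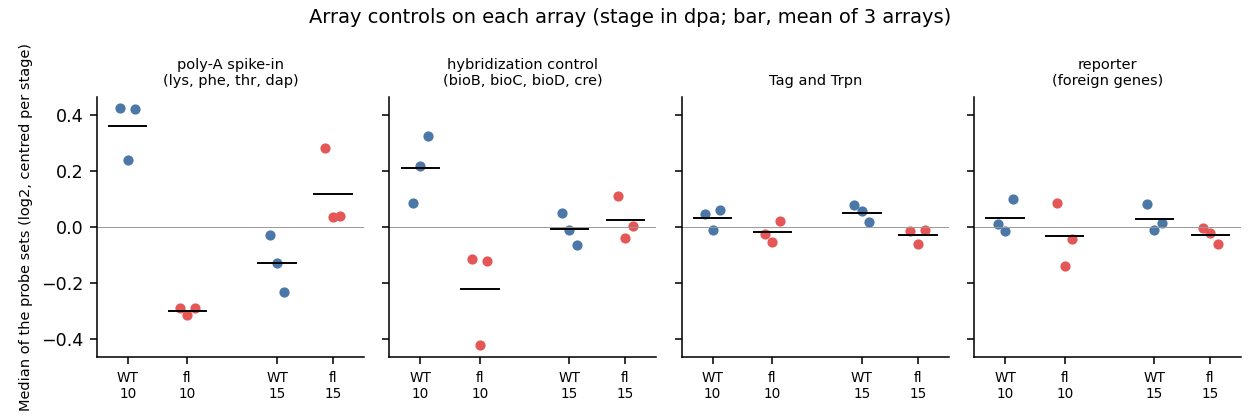
Median stage-centred log2 value of 4 families of control probe sets on each of the 12 arrays (WT blue, fl mutant red; x axis, genotype and dpa; bars, mean of 3 arrays). The poly-A controls lie above 0 in WT and below 0 in the mutant at 10 dpa and in the opposite order at 15 dpa, while the Tag, Trpn and reporter medians stay between -0.138 and 0.102.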

How the data were processed

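Total RNA of ovules was labelled and hybridised to Affymetrix cotton GeneChips. The authors summarised the scanned arrays with RMA in GeneSpring GX, and the deposited values are log2 intensities that were further shifted to a median of 0 per probe set within each stage. Which arrays were normalised together is not given in the sources used here, and a filter on dim probe sets was not possible because stage-centred values carry no absolute signal.

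A linear model with 1 mean for each of the 4 groups was fitted to the 12 arrays with limma 3.58.1 (lmFit and eBayes, R 4.3.3). P-values were adjusted by Benjamini-Hochberg over all 24029 probe sets. The thresholds, adjusted p at most 0.01 and fold at least 3, are those of the study's methods. The model was tested on simulated data. Probe sets were named through the Arabidopsis matches in the study's tables, of which the largest is held only in part; 2367 probe sets had a line and 2098 of them a match. Columns of fold changes in those tables hold the study's own comparisons and were not used.

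The transcripts, lists and tests were chosen with earlier results of these data known. Among called transcripts with a gene symbol or cotton gene name, transcripts were named by rule, with 1 probe set per Arabidopsis locus (that of the largest contrast): the 10 with the largest contrast in each direction, the 6 reversals in each direction with the largest smaller-of-both genotype difference, up to 4 called per list, and the study's 28 qRT-PCR transcripts. Transcripts outside it (other probe sets of a named gene or members of a described family) were chosen after their values were seen. Alternatives were a plain test, a robust fit, a fold-based test (treat), all 30 arrays, a replicate block, centring on the median or 75th percentile, other thresholds and leaving out each array. Scaling on the array controls was added after seeing the data.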

Additional observations from a re-analysis of the deposited data

Results flagged for a closer look

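Each result here is a genotype difference that itself differed between 10 and 15 dpa, or a signal in control probe sets outside the test. The difference between stages was tested by the limma contrast, which called 1719 transcripts higher and 1303 lower, with 141 reversing from lower to higher in the mutant and 52 from higher to lower.

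Ranked by the smaller of a transcript's genotype differences at both stages, with 1 probe set per locus and a gene symbol required, the first 6 reversals from lower to higher had stage contrasts of 13.01 for TCH4 (Gra.623.2.S1_s_at), 11.91 for IAA4, 11.63 for MERI5B, 10.87 for EXO, 9.74 for NOI, a RIN4-family protein, and 9.64 for GASA1. The first 6 from higher to lower, ranked the same way, had contrasts of -7.83 for TBL38, -7.37 for BRL3, -6.30 for CCOAMT, -6.20 for AIR3, -6.03 for BETA-VPE, a vacuolar processing protease, and -5.46 for XSP1. Within each 6, the transcripts stand in order of the size of their contrast and not of their rank. Reversals outside this ranking had larger contrasts in some cases, such as RRTF1 (9.88) and GST25 (-6.56).

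The AFFX control probe sets, which entered no test, also differed. The median contrast was 0.96 for the poly-A spike-ins and 0.48 for the hybridization controls. The 17 probe sets for cotton control transcripts had a median of 0.24 and ranged from -0.16 to 2.87 (AFFX-Ghi-ss1-M_s_at), with 2.79 for AFFX-Ghi-ubq11-5_x_at, a ubiquitin. The part of these shifts in the transcripts' contrasts was not tested beyond the scaling alternatives.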

How the results depend on the processing

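The counts of 1719 higher and 1303 lower contrasts were the same under a robust fit, all 30 arrays, a threshold of 0.05 on the adjusted p, and a replicate block within each stage or by number only, whose 3022 called transcripts were those called without the block. Same-numbered arrays correlated at -0.13 to 0.16 in their deviations, so the numbers were not taken to pair samples. The methods' t-test gave 1719 and 1302. Leaving out 1 array gave 1711 to 1747 higher and 1292 to 1356 lower (43 to 44.2% lower), 137 to 145 reversals from lower to higher and 49 to 53 from higher to lower, 1005 to 1046 lower and 830 to 877 higher at 10 dpa only, 146 to 158 higher and 148 to 154 lower at 15 dpa only, 56 to 64 called at both stages in the same direction and 614 to 634 at neither. No called contrast was called with the opposite sign under any alternative.

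Looser fold criteria gave more calls. A fold of at least 2 gave 2803 higher and 2896 lower contrasts, with 337 and 127 reversals, 1630 lower and 1976 higher at 10 dpa only, 281 higher and 272 lower at 15 dpa only, and 218 at both in the same direction. Treat against a fold of 1.5 gave 2596 and 2701, with 343 and 144, 1618 and 2010, 265 and 248, and 205, in the same order.

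With the poly-A scaling, contrasts numbered 887 higher and 4548 lower (83.7% lower), with 82 reversals from higher to lower, 484 lower and 2626 higher at 10 dpa only, 235 lower at 15 dpa only and 1746 at neither stage, and 2190 of the 3022 were still called. With the hybridization scaling, 2424 were lower (66.4%), 652 were lower and 1637 higher at 10 dpa only, and 2529 were still called. Among 215 named transcripts, 28 lost their call with the first and 11 with the second, while EIN3 and TCP20 lost it with either centring. Leaving out single arrays cost 4 of the 215 their call at least once (CHS, EIN3, TCP20 and GPRI1), all with contrasts near the fold threshold. Intensity over background, and so the reliability of dim probe sets, cannot be read from stage-centred values.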

Other observations

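The probe set with the largest stage contrast on the array carries no gene symbol. GhiAffx.7649.1.S1_s_at, matched to the Arabidopsis locus AT5G12010, went from -7.31 at 10 dpa to 5.88 at 15 dpa, a contrast of 13.19. The lowest was Ghi.6067.1.A1_at, matched to AT3G22600, a lipid-transfer-like protein, which went from 3.72 to -6.06, a contrast of -9.79. Both were chosen after their values were seen. Of the 3022 called transcripts, 1384 had no line in the study's tables as held here, of which the largest is partial, and 54.2% had one.

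Probe sets matched to the same Arabidopsis locus did not always move together. Of 370 loci with at least 2 probe sets, 70 had probe sets called in both directions. RD22, a dehydration-induced BURP-domain protein, had 5 higher and 1 lower among 11, from -4.31 to 5.92, and expansin A1 had 1 higher and 3 lower among 7. Cotton has several gene copies per Arabidopsis locus, and which copy each probe set detects was not tested.

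Of the study's 28 primer pairs, of 22 to 25 bases, 1 pair consists of primers that are reverse complements of each other, shown for that reason and written 5′ to 3′ for Ghi.5191.1.A1_at.
Ghi.5191.1.A1_at forward: attgtgtggtgtctggacccttgt
Ghi.5191.1.A1_at reverse: acaagggtccagacaccacacaat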
